A study of Arabidopsis thaliana with 8 samples.

Results

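The squamosa promoter-binding protein-like (SPL) transcription factors and the regulator CITF1 were followed through copper and iron shortage in Arabidopsis leaves. The set holds 10 of the 38093 gene entries: the copper regulator SPL7 (AT5G18830), CITF1 (AT1G71200) and 8 relatives of SPL7, namely SPL1 (AT2G47070), SPL2 (AT5G43270), SPL3 (AT2G33810), SPL9 (AT2G42200), SPL10 (AT1G27370), SPL12 (AT3G60030), SPL14 (AT1G20980) and SPL15 (AT3G57920). They were chosen by identifier, and all 10 were found in every library. RNA from rosette leaves of wild-type Col-0 was sequenced in 4 groups of 2 libraries. All plants spent 12 d in soil, then 10 d in hydroponic medium that held 1 µM copper sulfate and 10 d under treatment, and leaves were taken 4 h after lights came on. Controls stayed on that medium. Copper-deficient plants had no copper sulfate and 10 µM of the copper chelator bathocuproine disulfonate, iron-deficient plants had no FeEDTA, and doubly deficient plants lacked both metals, so that iron was withheld without an iron chelator. The labels also give an age of 20 d, which does not match these periods. The sources used here do not state whether the paired libraries of each group had separate plantings, so the p-values measure the spread between these libraries, which may be technical.

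SPL proteins are plant transcription factors that share a DNA-binding domain and bind sites with the core GTAC. SPL7 is the regulator that turns on the copper-deficiency response of Arabidopsis, including copper transporters, the iron superoxide dismutase FSD1 and microRNAs that lower copper proteins, and CITF1, a basic helix-loop-helix factor, acts together with SPL7 in copper uptake and flower fertility. A second group of SPL genes, to which SPL2, SPL3, SPL9, SPL10 and SPL15 belong, is held down in young plants by the microRNA miR156, and its release accompanies adult leaf form and flowering. SPL1, SPL12 and SPL14 are, like SPL7, large members outside miR156 control.

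The sequences that divide the family are miR156 and its site in the SPL messenger RNA, shown here because the site divides the family into the groups by which it is described below. The mature microRNA is given with its seed (bases 2 to 8) in capitals. Each site is written on the messenger strand, 5′ to 3′, with capitals at bases that differ from the exact complement of the microRNA. G:U pairs are thus marked as mismatches too. Sequences and positions are from RefSeq, TAIR10.1.
miR156a-5p: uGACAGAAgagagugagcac
SPL2 site: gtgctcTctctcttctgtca
SPL9 site: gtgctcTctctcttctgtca
SPL10 site: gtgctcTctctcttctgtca
SPL15 site: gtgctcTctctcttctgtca
SPL3 site: TtgctTactctcttctgtca
The sites lie at chr5:17360758-17360777 (minus strand) in SPL2, chr2:17589066-17589085 (plus) in SPL9, chr1:9505541-9505560 (minus) in SPL10, chr3:21444834-21444853 (minus) in SPL15 and chr2:14305878-14305897 (plus) in SPL3. The first 4 are in coding sequence, that of SPL10 in 6 of its 7 coding transcripts, and share 1 sequence. The SPL3 site lies in the 3′ UTR. In transcripts of SPL7, SPL1, SPL12, SPL14 and CITF1 no site with 4 or fewer mismatches was found. The annotation places the mature miR156j of the locus MIR156j on the minus strand at the same 20 bases as the SPL9 site, and since the libraries were unstranded, reads of SPL9 and of that locus cannot be told apart.

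SPL7 was not called different without copper, and it was higher in every library without iron. Values are FPKM, fragment counts divided by transcript length and by the fragments mapped in the library. SPL7 (chr5:6275895-6280681) stood at 6.02 and 5.42 FPKM in the control libraries, 4.82 and 6.08 in copper deficiency, 11.1 and 12.6 in iron deficiency and 10.4 and 9.23 in double deficiency. The groups were therefore ordered iron, double, control and copper, with the last 2 overlapping and no overlap between the 4 libraries without iron and the 4 with it. These means were 10.8 ± 1.40 FPKM without iron and 5.59 ± 0.591 with it (SD, n = 4 each), a ratio of 1.94. The width of the authors' bounds puts 89.4 to 292 fragments behind each SPL7 value, under a Poisson model that covers counting error only. In bulk leaf RNA, fewer cells of a type and less RNA per cell cannot be told apart.

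In the test across all genes, differences are on the log2(FPKM + 1) scale with limma standard errors, and a gene is called at an adjusted p under 0.05 over 19171 genes. This scale understates changes of low genes. SPL7 in copper deficiency differed from control by -0.07 ± 0.15 (95% interval -0.43 to 0.29, limma adjusted p = 0.986). In iron deficiency it rose by 0.93 ± 0.15 (adjusted p = 0.00580), in double deficiency by 0.69 ± 0.15 over control (adjusted p = 0.0116) and by 0.75 ± 0.15 over copper deficiency (adjusted p = 0.00830). The step from iron to double deficiency, -0.25 ± 0.15, was not called (adjusted p = 0.405), nor was the interaction of the metals, -0.18 with a 95% interval of -0.69 to 0.33 (adjusted p = 0.748). None of the 8 tested members was called in either of these comparisons, where 1.14% and 0.589% of all genes were. The rise in iron deficiency was called under every scaling and without each library in turn. The rise in double deficiency was not: under median-ratio scaling it was 0.29 over control (adjusted p = 0.122) and 0.35 over copper deficiency (adjusted p = 0.0724), and under quantile normalization 0.17 (adjusted p = 0.341) and 0.24 (adjusted p = 0.183).

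**Figure D1:**
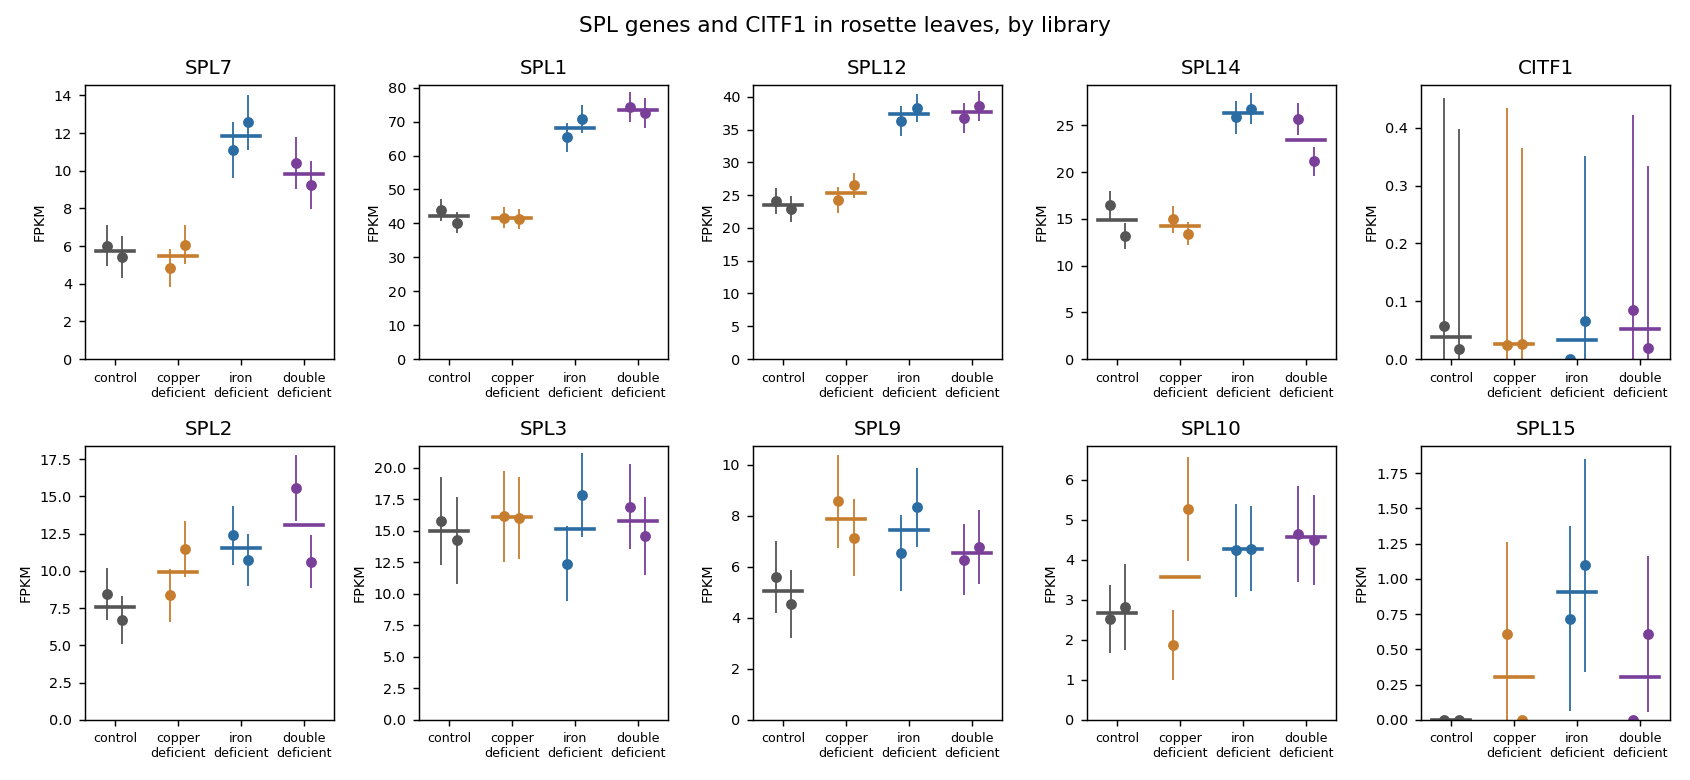
FPKM of the 10 genes in each library (points, with the authors' lower and upper bounds as lines) and the mean of each group of 2 libraries (horizontal bars), on a linear axis for each gene. SPL7, SPL1, SPL12 and SPL14 lie higher in all 4 libraries without iron than in all 4 with it, and CITF1 lies under 0.1 FPKM throughout.

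CITF1 (chr1:26835200-26837991) was not detectable at this depth in leaves of any group. It was listed at 0.0578 and 0.0175 FPKM in the controls, 0.0246 and 0.0266 in copper deficiency, 0 and 0.0661 in iron deficiency and 0.0854 and 0.0196 in double deficiency. All these values imply under 1 fragment (at most 0.257), and their upper bounds reach 0.451 FPKM. The copper-deficient values lie inside the range of the controls. CITF1 did not pass the filter on low values, so it has no test. This does not show that the gene is silent.

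The large relatives of this set without a miR156 site, SPL1, SPL12 and SPL14, were also higher in every library without iron. This was not a trait of all such genes or of them alone. Outside the set, SPL16, large and without a site, overlapped, and SPL4 and SPL6, which have a site, did not. SPL1, known with SPL12 for heat tolerance of flowering shoots, was the highest of the set, at 43.9 and 40.2 FPKM in control leaves, 41.7 and 41.2 in copper deficiency, 65.4 and 70.8 in iron deficiency and 74.3 and 72.6 in double deficiency. SPL12 stood at 24.1 and 22.9 FPKM, 24.2 and 26.5, 36.3 and 38.3, and 36.8 and 38.6 in the same order of groups. In both genes the 4 libraries with iron fell in a narrow band and all 4 libraries without iron lay above it. SPL14, known for its part in sensitivity to the fungal toxin fumonisin B1, ran at 16.5 and 13.2 FPKM in control leaves, 14.9 and 13.4 in copper deficiency, 25.9 and 26.8 in iron deficiency and 25.7 and 21.2 in double deficiency. Its groups with and without iron did not overlap either. Over all 19171 tested genes, 39.8% showed such a separation with the libraries without iron on top, so that 4 of the 8 tested members is a share near that of all genes.

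In iron deficiency 4 of the 8 tested members rose and 0 fell, where 27.2% of all genes were called higher and 6.85% lower. SPL14 rose by 0.79 ± 0.15 (limma adjusted p = 0.00923), SPL1 by 0.68 ± 0.09 (adjusted p = 0.00275) and SPL12 by 0.64 ± 0.09 (adjusted p = 0.00388). SPL14 was not called without iron deficiency replicate 2 (adjusted p = 0.0559). The same 4 genes rose in double against copper deficiency, in which 39.4% of all genes were called higher. The 2 comparisons share no library, but both take their spread from 1 model of all 8 libraries, so their p-values are not independent. In the second, SPL1 rose by 0.81 ± 0.09 (adjusted p = 0.000930), SPL14 by 0.68 ± 0.15 (adjusted p = 0.0110) and SPL12 by 0.55 ± 0.09 (adjusted p = 0.00410). SPL14 was not called there without double deficiency replicate 1 (adjusted p = 0.0712). Under median-ratio and quantile scaling only SPL1 rose in that comparison, and SPL3 and SPL9 fell. In double deficiency against control 5 members rose (39.2% of all genes called higher), these 4 and SPL2 (0.70 ± 0.23, adjusted p = 0.0475), of which SPL1 alone rose under those scalings. The call of SPL2 was lost without either control (adjusted p = 0.0709 and 0.1996), without either iron-deficient library (0.0761 and 0.0760), without double deficiency replicate 1 (0.231) and with the replicate numbers as a block (0.0587), and SPL14 was lost without control replicate 2 (0.0783) or double deficiency replicate 1 (0.0909).

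Taking both copper levels together, 4 libraries against 4, SPL7 rose by 0.84 ± 0.11 (adjusted p = 0.00101), SPL1 by 0.75 ± 0.06 (adjusted p = 0.000213), SPL14 by 0.74 ± 0.10 (adjusted p = 0.00155) and SPL12 by 0.60 ± 0.06 (adjusted p = 0.000547). On this scale 45.8% of all genes were called higher and the median gene rose by 0.34, so the 4 genes stood 0.50, 0.40, 0.40 and 0.26 above that median. Median-ratio scaling moves the median gene to 0.03, and the 4 calls remained there at 0.51, 0.38, 0.38 and 0.24. They remained under quantile normalization too, at 0.40, 0.48, 0.35 and 0.26. The split of all called genes into higher and lower depends on the scaling: 8781 and 1820 as deposited, 4354 and 4118 under median-ratio scaling, and 3968 and 4572 under quantile normalization.

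**Figure D2:**
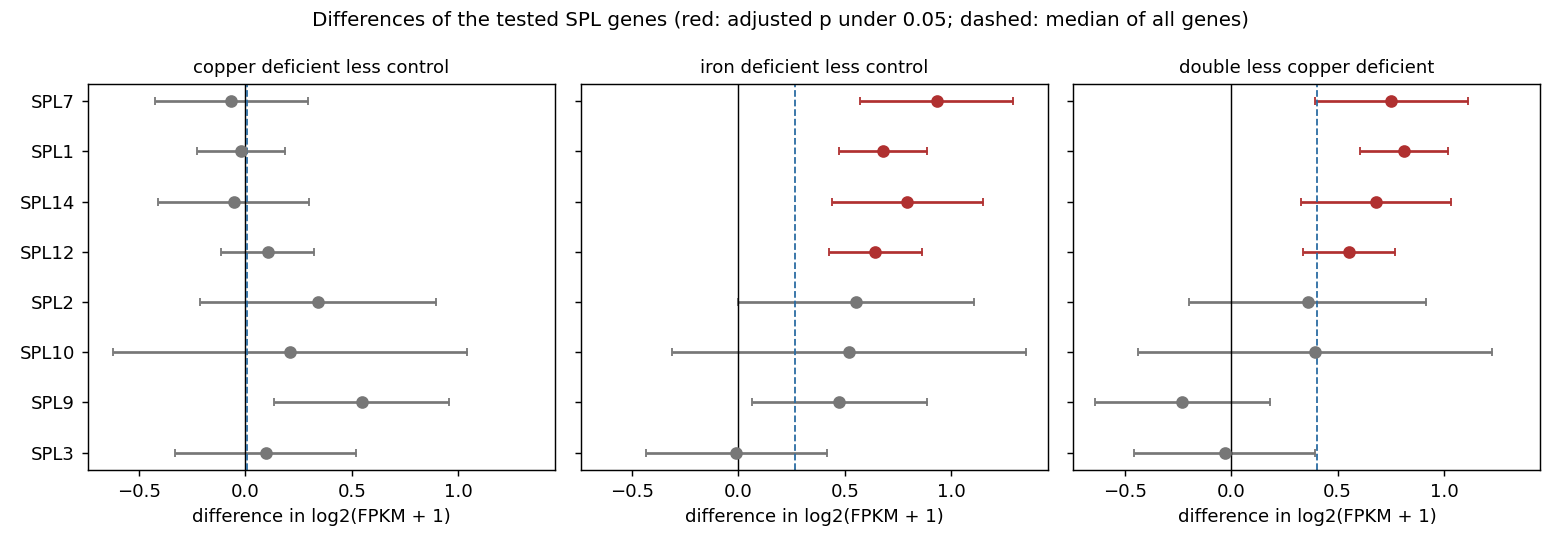
Difference in log2(FPKM + 1) of the 8 tested SPL genes (points, 95% limma intervals as lines) for copper deficiency and iron deficiency against control and for double against copper deficiency; red marks an adjusted p under 0.05 and the dashed line the median of all genes. SPL7, SPL1, SPL14 and SPL12 are red in both iron comparisons and no gene is red for copper.

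Copper deficiency alone called none of the 8 tested members with limma, against a background of 0.183% of genes called in either direction and 937 genes at an unadjusted p under 0.05. The largest difference was that of SPL9, which sets the pace of leaf initiation and the change to adult leaves. The SPL9 libraries gave 5.59 and 4.53 FPKM in control and 8.56 and 7.14 in copper deficiency, a difference of 0.55 ± 0.17 (unadjusted p = 0.0168, adjusted p = 0.946). In iron deficiency it stood at 6.54 and 8.33 FPKM and in double deficiency at 6.28 and 6.77. All 3 deficient groups lay above the controls, and none of these differences was called. Over both copper levels the iron difference of SPL9 was 0.12 ± 0.12 (adjusted p = 0.424), with a direction that depended on scaling: -0.20 under median-ratio scaling (adjusted p = 0.165) and -0.32 under quantile normalization (adjusted p = 0.0486).

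The other members with a miR156 site gave no call for iron over both copper levels. SPL3, a small protein that promotes flowering, measured 15.8 and 14.2 FPKM in control leaves, 16.1 and 16.0 in copper deficiency, 12.4 and 17.8 in iron deficiency and 16.9 and 14.6 in double deficiency. The 2 iron-deficient libraries span the values of all other groups, and the difference over both copper levels was -0.02 (95% interval -0.32 to 0.28, adjusted p = 0.902). Relative to the rise of the median gene SPL3 was lower, and under median-ratio scaling it fell by 0.37 (adjusted p = 0.0223) and under quantile normalization by 0.43 (adjusted p = 0.0139), while scaling to nuclear coding transcripts gave 0.12 (adjusted p = 0.415). SPL2, which with SPL10 and SPL11 shapes shoot organs, measured 8.44 and 6.72 FPKM in control leaves, 8.35 and 11.5 in copper deficiency, 12.4 and 10.7 in iron deficiency and 15.6 and 10.6 in double deficiency. Its groups with and without iron overlapped, and the difference was 0.46 ± 0.16 (adjusted p = 0.0520), called without copper deficiency replicate 2 (adjusted p = 0.0392) or double deficiency replicate 2 (0.0333), under scaling to nuclear coding transcripts (0.0182) and with the stricter filter of 5 FPKM (0.0445).

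SPL10 gave 2.52 and 2.82 FPKM in control leaves, 1.87 and 5.28 in copper deficiency, 4.24 and 4.28 in iron deficiency and 4.65 and 4.50 in double deficiency. The second copper-deficient library was the highest of all 8 and the first the lowest. The difference for iron, 0.46 ± 0.24, was not called (adjusted p = 0.157), and it was 0.74 without copper deficiency replicate 2 (adjusted p = 0.00436) and 0.17 without replicate 1 of that group (adjusted p = 0.226). SPL10 lies beside its close copy SPL11, and how reads were shared between them is not stated in the sources used here. SPL15, which acts with SPL9 in flowering, was listed at 0 in both controls, in copper deficiency replicate 2 and in double deficiency replicate 1, and at 0.608, 0.717, 1.096 and 0.608 FPKM in copper deficiency replicate 1, iron deficiency replicates 1 and 2 and double deficiency replicate 2. It did not pass the filter and has no test.

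Since FPKM are per length, levels can be set side by side within a library. In the controls the order of the means was SPL1, SPL12, SPL3, SPL14, SPL2, SPL7, SPL9, SPL10, CITF1 and SPL15. Over the 2 control libraries the ranges of SPL3 and SPL14 overlapped, as did those of SPL7 and SPL9. Within each control library SPL7 stood above SPL9 (ratios 1.08 and 1.20). In iron deficiency SPL14 stood above SPL3 in both libraries, and the range of SPL7 over the 2 libraries overlapped with those of SPL3 and SPL2. Within each iron-deficient library SPL7 stood below SPL3 (ratios 0.895 and 0.705). SPL7 was at a mean of 0.381 of the SPL3 level in control, 0.339 in copper deficiency, 0.800 in iron deficiency and 0.624 in double deficiency. Its ratio to SPL3 ran from 0.298 to 0.381 in the libraries with iron and from 0.616 to 0.895 in those without, and its ratio to SPL9 from 0.563 to 1.20 and from 1.36 to 1.698. Neither ratio overlapped between these libraries. The share over all genes was counted on the log2(FPKM + 1) scale, as SPL7 less the gene. By that measure 44.9% of genes had SPL7 relatively higher in every library without iron than in every library with it. The ratio to SPL1 stayed between 0.116 and 0.178 and overlapped, as did the ratios to SPL12, SPL14, SPL2 and SPL10. The ratios of FPKM do not depend on the scaling of a library by 1 factor, which does not hold exactly for the share over all genes.

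**Figure D3:**
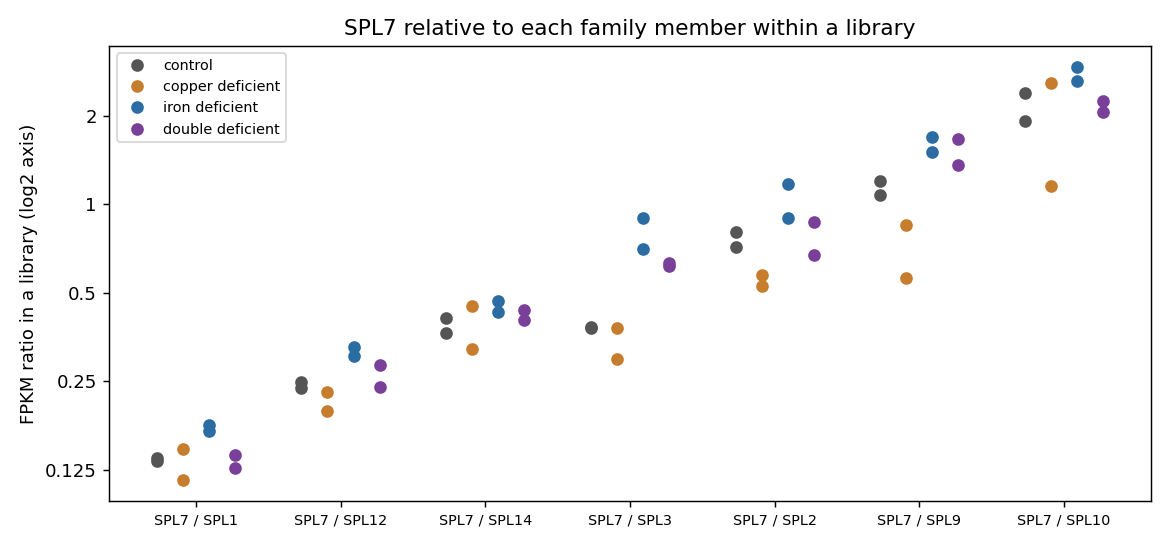
Ratio of SPL7 to each of 7 family members within each library, in FPKM on a log2 axis, coloured by group. The ratios to SPL3 and SPL9 are higher in all 4 libraries without iron, and those to the other 5 genes overlap.

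The iron difference of each relative was also tested after subtracting SPL7 within each library, a test in which 56.9% of all genes were called lower than SPL7. SPL3 lagged SPL7 by -0.86 ± 0.11 (limma adjusted p = 0.000785) and SPL9 by -0.72 ± 0.14 (adjusted p = 0.00498). SPL2 was lower at -0.39 ± 0.13 (adjusted p = 0.0367) and SPL12 at -0.24 ± 0.09 (adjusted p = 0.0445), calls that rested on single libraries. SPL2 was not called without either control, either copper-deficient library, iron deficiency replicate 2 or double deficiency replicate 2 (adjusted p from 0.0520 to 0.122). SPL12 was not called without either control, either iron-deficient library, copper deficiency replicate 1 or double deficiency replicate 1 (adjusted p from 0.0855 to 0.144), nor with the replicate numbers as a block (0.0689), under quantile normalization (0.172) or scaled to nuclear coding transcripts (0.0532). SPL1 (-0.10, 95% interval -0.31 to 0.12), SPL14 (-0.10, -0.38 to 0.17) and SPL10 (-0.39, -0.87 to 0.10) were not called, and these intervals leave room for differences of either sign. Without copper deficiency replicate 1 SPL10 was called lower than SPL7 (-0.60, adjusted p = 0.0106), and without replicate 2 it differed by -0.17 (adjusted p = 0.285). Within iron deficiency against control alone, SPL3 was the 1 member called lower than SPL7 (-0.94, adjusted p = 0.00314), with 56.5% of all genes called so.

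Of the 8 SPL genes outside the set, 7 were tested. SPL4, a close relative of SPL3 with a role in flowering, rose over both copper levels by 1.17 ± 0.19 (adjusted p = 0.00268), from 6.03, 7.85, 7.71 and 4.93 FPKM with iron to 12.2, 18.5, 15.6 and 18.4 without. The mature miR156i is annotated on the opposite strand at the miR156 site of SPL4 (chr1:19807090-19807109). As with SPL9, reads of SPL4 and of that locus cannot be told apart in unstranded libraries. SPL6 rose by 0.65 ± 0.13 (adjusted p = 0.00639; 0.169 under quantile normalization), and SPL5, SPL11, SPL13A, SPL13B and SPL16 were not called. SPL16, the closest relative of SPL14, differed by 0.20 ± 0.12 (adjusted p = 0.199), and by -0.11 and -0.24 under median-ratio and quantile scaling. Its libraries overlapped, at 4.24 to 5.45 FPKM with iron and 4.98 to 6.61 without. SPL13A and SPL13B are near-identical copies whose separate values are uncertain, and their differences turned from 0.12 and 0.11 to -0.33 and -0.33 under quantile normalization. Over the whole family, 4 of 5 tested genes without a miR156 site rose, with a median difference of 0.74, and 2 of 10 with a site, with a median of 0.31, where 45.8% of all genes were called higher and the median of all genes was 0.34. The genes without a site are also the long ones: apart from SPL8, which was not tested and has a coding length of 741 nt, their coding lengths run from 2085 to 3108 nt, against 396 to 1260 nt for those with a site. Site and length cannot be told apart here, and no test was made of the division. The calls also depend on the standard error. It was 0.06 to 0.11 in the 4 genes that rose without a site, and ran from 0.09 (SPL13B) to 0.38 (SPL5) in those with one. SPL2 and SPL10, both at 0.46, had 0.16 and 0.24. The near-identical SPL13A and SPL13B count as 2 of the 10.

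**Figure D4:**
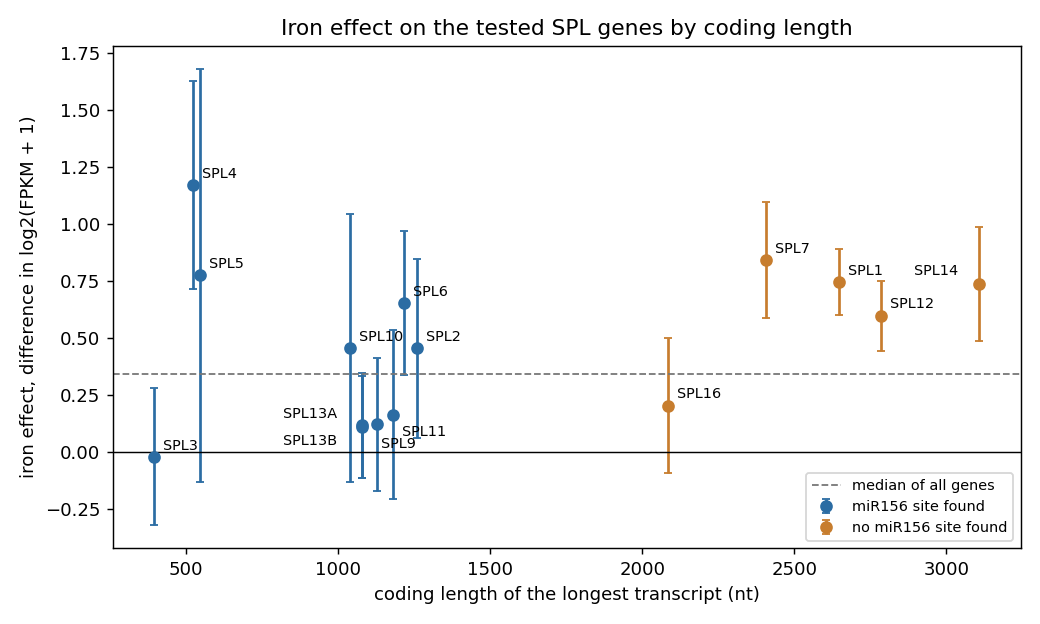
Difference in log2(FPKM + 1) for iron over both copper levels (points, 95% limma intervals) of the 15 tested SPL genes against coding length in nucleotides, coloured by whether a miR156 site was found. The 5 genes without a site have coding lengths from 2085 nt, and 4 of them lie above the dashed median of all genes.

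The microRNA itself could not be followed. Of 14 MIR156 and MIR157 loci, 12 were listed at 0 in all libraries, and 3 of 5 MIR172 loci likewise, so no level of the mature microRNA is given. MIR157c was the 1 locus of the 14 tested. It stood at 0 and 54.3 FPKM in control, 26.4 and 0 in copper deficiency, 41.2 and 26.3 in iron deficiency and 92.1 and 25.3 in double deficiency. Its difference over both copper levels, 2.72, was not called. Of 5 tested genes downstream of miR156-controlled SPL factors, SOC1 and FUL, promoters of flowering, rose over both copper levels by 0.74 ± 0.12 (adjusted p = 0.00307) and 1.65 ± 0.15 (adjusted p = 0.000348), and the trichome repressors TRY and TCL1 fell by 1.46 ± 0.18 (adjusted p = 0.000875) and 1.15 ± 0.20 (adjusted p = 0.00373) on the log2 scale. These are 2 rises and 2 falls of 5, against 45.8% of all genes called higher and 9.49% lower. TRY and TCL1 are known to be activated by SPL9, whose own level did not pass the test.

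Of 19 copper-response genes and loci, 10 were tested. In copper deficiency 0 were called by limma, where only 0.183% of all genes were called in either direction. CSD2, the chloroplast copper/zinc superoxide dismutase, stood at 322 and 355 FPKM against 595 and 847 in the controls (-1.07 ± 0.18, unadjusted p = 0.000895, adjusted p = 0.301). FSD1, which SPL7 activates in copper shortage, stood at 734 and 711 FPKM against 400.1 and 256 (1.17 ± 0.36, unadjusted p = 0.0162, adjusted p = 0.946). Over both copper levels without iron 5 rose, the transporters COPT1 and COPT2, the copper chaperone CCS and the dismutases CSD1 and CSD2, and 3 fell, FSD1, YSL2 and CCH, where 45.8% of all genes were called higher and 9.49% lower, so that the share that rose is near that of all genes. Under median-ratio scaling the rises of COPT1, COPT2, CSD1 and CSD2 were not called (adjusted p from 0.0531 to 0.317), nor was that of COPT2 under quantile normalization (0.0976). FSD1 fell by 8.07 ± 0.26 on the log2 scale (adjusted p = 6.52e-06), from 256 to 734 FPKM in the libraries with iron to 0.327 to 1.83 in those without. In all 4 libraries without iron SPL7 was thus above, and FSD1 below, every library with iron. CSD1 and CSD2 hold copper, and FSD1 holds iron.

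By Pearson correlation of log2(FPKM + 1) over the 8 libraries, the genes most like SPL7 were AT2G26780 (r = 0.995), CSY3 (0.993), SK42 (0.993), IMS2 (0.992) and UMAMIT12 (0.992). IMS2 (AT5G23020) rose most among them, from 4.90 to 7.08 FPKM with iron to 16.5 to 36.7 without. Of the members, SPL14 reached r = 0.955, SPL12 0.949, SPL1 0.937, SPL2 0.715, SPL10 0.676, SPL9 0.246 and SPL3 0.012. High values were common: the median gene had r = 0.645 and 90% of genes stayed under 0.922. SPL14, SPL12 and SPL1 ranked 533, 711 and 1141 of 16811 genes. The libraries split by iron, and agreement beyond that split was not tested.

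Upstream sequence is shown for SPL7, which rose without iron and holds no GTAC in its window, and SPL12, which rose and holds 2, with GTAC, the core bound by SPL proteins, in capitals. Each is the 250 bases before the annotated gene start in TAIR10.1, written on the gene's strand.
SPL7, chr5:6275645-6275894, plus strand: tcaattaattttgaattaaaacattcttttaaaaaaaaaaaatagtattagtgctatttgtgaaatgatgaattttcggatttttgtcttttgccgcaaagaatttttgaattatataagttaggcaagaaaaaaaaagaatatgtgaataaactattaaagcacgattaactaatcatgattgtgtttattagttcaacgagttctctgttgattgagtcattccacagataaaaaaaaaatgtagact
SPL12, chr3:22169985-22170234, minus strand: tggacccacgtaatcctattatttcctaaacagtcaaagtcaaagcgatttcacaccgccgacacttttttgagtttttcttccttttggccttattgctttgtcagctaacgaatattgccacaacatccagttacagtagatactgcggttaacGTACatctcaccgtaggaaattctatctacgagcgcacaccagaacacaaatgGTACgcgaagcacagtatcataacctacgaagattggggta
In a window of 250 bases before to 50 after the start, GTAC, which reads the same on both strands, occurred in SPL12, SPL1, SPL14 and SPL15 and in none of SPL7, SPL2, SPL3, SPL9, SPL10 and CITF1. It was found in 39.0% of 27443 promoters of that length, and at least 2 copies in 9.76%. CACGTG, the G-box, occurred in none of the 10 members and in 7.68% of promoters. A match is a string of letters and not a shown binding site.

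Relative depth, with the deepest library at 1, ran from 0.744 to 1. The make-up of the libraries split by iron. Nuclear coding genes held 78.7 to 93.4% of the FPKM in the libraries with iron and 69.2 to 78.5% in those without. Genes at 1 FPKM or more numbered 16842 to 17421 and 17951 to 18396. Several marker lists moved with iron beside the SPL genes. The summed level of 5 mesophyll markers ran from 30465 to 33984 FPKM with iron and from 20432 to 24790 without, although GLDP1 of that list rose by 0.72 ± 0.07 (adjusted p = 0.000475). The summed level of 3 markers of dividing cells ran from 6.21 to 20.8 and from 47.6 to 60.5, that of 5 flower markers from 0.505 to 1.85 and from 5.21 to 11.2, and that of 4 shoot meristem markers from 0.0355 to 1.15 and from 1.40 to 9.18. The sums of 5 root markers overlapped, at 5.18 to 24.9 and 20.7 to 44.1 FPKM, with EXPA7 at 0 in all groups, as did those of 3 guard cell markers, at 21.8 to 30.5 and 29.9 to 32.1. The sums of all lists hide how single markers moved. Of the 5 flower markers 4 were called higher over both copper levels. AG and AP3 of that list overlapped, AG at 0.435 to 1.42 FPKM with iron and 0.572 to 1.16 without. PYK10, the 1 root marker tested, was called higher over both copper levels (1.36). Of the guard cell markers 1 was called higher and 1 lower. KAT1 ran from 7.22 to 9.40 FPKM with iron and from 4.50 to 4.78 without, and FAMA from 9.23 to 11.3 and from 16.1 to 18.6. The 2 vascular markers summed to 66.9 to 83.6 FPKM in control, copper and iron deficiency and 40.8 to 42.1 in double deficiency, where SUC2 of the phloem fell against iron deficiency (-0.97 ± 0.11, adjusted p = 0.0152). WUS, which defines the shoot meristem, was at 0 in the control and copper-deficient groups and at 0.00622 to 0.115 FPKM without iron, values too low to tell from absence. The highest meristem sum rested mostly on STM in double deficiency replicate 1, at 6.13 FPKM against 0.324 in replicate 2. CLV3 of that list was highest in control replicate 2 (0.286 FPKM). The part of these markers in the SPL differences was not tested.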

How the data were processed

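Leaf RNA from 8 libraries was sequenced unstranded. Per the submitters' processing notes, the tools were Trimmomatic, TopHat2 2.1.1, Cufflinks and Cuffdiff, while the sources used here state neither their roles nor a build or annotation. The authors deposited FPKM values per gene, each between 2 bounds, with no stated scaling across libraries. Coordinates are as deposited, 1-based, and all 10 members matched TAIR10.1 exactly. Read totals are not given, so depth is relative, from the width of the bounds.

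Log2(FPKM + 1) was fitted for every gene that reached 1 FPKM in 2 or more libraries, with limma 3.58.1 (R 4.3.3, eBayes with trend) in 1 model of 4 groups, and p-values were adjusted by Benjamini-Hochberg over all tested genes. The fit was tested on simulated data. Of the members, 8 passed the filter. The members and lists were chosen with earlier results of these data known. All members are named, other lists by their extremes, and the 5 genes most like SPL7 by Pearson's r. No likeness to CITF1 is given, as its values imply under 1 fragment. Same-numbered libraries of different groups did not deviate together (correlations from -0.0394 to 0.0238), so numbers are used as names and no pairing is assumed. The sample titles also carry letters, A and B in order, but B and C for copper deficiency. Pairing of the copper-deficient libraries by letter was not checked. Alternatives covered pseudocount, filter, scaling, variance trend, a replicate block and each library left out. Sites of miR156 were searched in annotated transcripts with up to 4 mismatches.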

Additional observations from a re-analysis of the deposited data

Results flagged for a closer look

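The libraries of SPL9 lay on opposite sides when iron was withdrawn with and without copper, although neither difference passed the test: 0.47 ± 0.17 with copper (limma adjusted p = 0.0755) and -0.23 ± 0.17 without it (adjusted p = 0.310). With copper present it went from 5.59 and 4.53 FPKM (control) to 6.54 and 8.33 in iron deficiency, and without copper from 8.56 and 7.14 to 6.28 and 6.77. Both iron-deficient libraries lay above both controls, and both doubly deficient libraries lay below both copper-deficient ones. How many of all genes show such a reversal was not counted. The difference of these differences was -0.70 ± 0.24 on the log2(FPKM + 1) scale (limma unadjusted p = 0.0247, adjusted p = 0.300), and it was not called. Of all genes, 0.589% were called for this interaction. Reads of the locus MIR156j on the opposite strand would count toward SPL9 in unstranded libraries, and their part in the result was not tested.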

How the results depend on the processing

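Under median-ratio scaling and quantile normalization SPL7 differed in double deficiency by 0.29 and 0.17 from control and by 0.35 and 0.24 from copper deficiency, none called, and 1 member in place of 5 rose against control. Those scalings also changed the split of called genes: in iron deficiency 5218 higher and 1314 lower became 2783 and 2764 and then 2652 and 2694, in double deficiency against control 7506 and 1148 became 3182 and 2893 and then 2990 and 3308, and against copper deficiency 7552 and 1227 became 3200 and 3113 and then 3047 and 3529. Over both copper levels, scaling to nuclear coding transcripts gave 10883 and 1382. Values that turned in sign and passed the test in 1 of the settings compared were, under quantile normalization, the iron difference of SPL9 (-0.32), SPL13A (-0.33) and SPL13B (-0.33) and that of CSD1 relative to SPL7 (0.072), and under median-ratio scaling CSD1 in double deficiency against control (-0.024). The cause was not tested. Requiring 5 FPKM in 2 libraries, and so testing fewer genes, left 23 genes called for copper deficiency and 58 for the interaction, and no filter gave 25233 genes that differed from SPL7, since more genes entered.

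The replicate numbers as a block, by which no pairing was seen, gave 133 genes in place of 218 for double against iron deficiency and 68 in place of 113 for the interaction. The members' counts of calls moved from 5 to 4 for double deficiency (SPL2 lost, adjusted p = 0.0587) and from 4 to 3 relative to SPL7 (SPL12 lost).

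Leaving out each library in turn, the number of called genes ran from 35 to 99 for copper deficiency (the highest without copper deficiency replicate 1), 3338 to 6753 for iron deficiency, 5079 to 8880 for double deficiency, 5174 to 8338 for double against copper deficiency, 57 to 178 for double against iron deficiency and 66 to 140 for the interaction. Members called ran from 2 to 6 for double deficiency, 2 to 5 for double against copper deficiency and 2 to 3 relative to SPL7. SPL7 ran from 0.61 to 0.77 in double deficiency, not called without control replicate 2 (adjusted p = 0.0610) or double deficiency replicate 1 (adjusted p = 0.0740), and from 0.61 to 0.89 against copper deficiency, not called without double deficiency replicate 1 (adjusted p = 0.0581). Where a group keeps 1 library, that library is assumed to vary like the others. Depth limits CITF1 and SPL15, which rest on few fragments or none.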
